A study of Homo sapiens with 6 samples.

Results

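The genes of the centromere, the kinetochore and chromosome condensation were followed in TPC1, an established line grown from a human papillary thyroid cancer and known for its RET rearrangement. All 55 genes of a list set by name were found by symbol among the 21173 genes of the count table, and all 55 passed the filter on low counts. The 6 RNA-seq libraries were 3 from TPC1 cells with a vector, whose genotype is labelled WT, and 3 from TPC1 cells overexpressing the transcription factor TFCP2L1, labelled TFCP2L1 OE. The promoter that drives the overexpressed gene, the way it was delivered and whether the cells are 1 clone or a pool are not given in the sources used here. Nothing in the labels says that replicates came from separate cultures. Each p-value below is therefore set against the spread between these libraries alone, and that spread may be technical.

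A centromere is marked by nucleosomes that carry the histone variant CENP-A in place of H3. On it sits the inner kinetochore, a set of CENP proteins present through much of the cell cycle, and on that, in mitosis, the outer kinetochore that grips microtubules. Cohesin rings hold sister chromatids together and condensin folds each chromatid into a compact rod. Many of these genes are known to be transcribed mainly in G2 and mitosis, under the DREAM and MuvB complexes, FOXM1 and MYBL2, so their RNA in a culture rises and falls with the share of dividing cells.

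The promoters of the 4 called members with the largest fold change are shown first, since many mitotic genes share a cell cycle homology region (CHR), bound by MuvB, and CCAAT boxes, bound by NF-Y. Each window runs from 250 bases before to 50 bases after the transcription start, 5′ to 3′ on the gene's strand, and was taken from RefSeq on GRCh38.p14. Capitals mark a CHR word (TTTGAA or TTCGAA) or a CCAAT word on either strand (ATTGG is CCAAT on the other strand), and adjacent or overlapping words run together.
MKI67 (chr10:128126374-128126673, minus strand): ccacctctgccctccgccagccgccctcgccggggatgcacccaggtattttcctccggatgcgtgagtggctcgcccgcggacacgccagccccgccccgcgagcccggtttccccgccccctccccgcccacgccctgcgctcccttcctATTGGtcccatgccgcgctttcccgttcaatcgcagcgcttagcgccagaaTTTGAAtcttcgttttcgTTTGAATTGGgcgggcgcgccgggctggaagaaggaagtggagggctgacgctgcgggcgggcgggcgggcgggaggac
CENPE (chr4:103198294-103198593, minus strand): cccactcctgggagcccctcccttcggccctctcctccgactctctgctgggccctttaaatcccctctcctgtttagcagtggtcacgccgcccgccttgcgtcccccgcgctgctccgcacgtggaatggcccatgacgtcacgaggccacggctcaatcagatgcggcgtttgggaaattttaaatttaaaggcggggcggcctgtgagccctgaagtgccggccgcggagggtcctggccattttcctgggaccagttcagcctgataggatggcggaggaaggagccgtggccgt
HJURP (chr2:233854486-233854785, minus strand): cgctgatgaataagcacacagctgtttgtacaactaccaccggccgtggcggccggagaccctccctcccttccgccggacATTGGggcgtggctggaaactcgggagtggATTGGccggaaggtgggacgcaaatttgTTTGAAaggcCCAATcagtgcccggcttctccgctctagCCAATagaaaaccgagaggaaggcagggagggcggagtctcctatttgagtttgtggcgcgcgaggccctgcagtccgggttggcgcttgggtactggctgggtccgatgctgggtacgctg
SGO2 (chr2:200525892-200526191, plus strand): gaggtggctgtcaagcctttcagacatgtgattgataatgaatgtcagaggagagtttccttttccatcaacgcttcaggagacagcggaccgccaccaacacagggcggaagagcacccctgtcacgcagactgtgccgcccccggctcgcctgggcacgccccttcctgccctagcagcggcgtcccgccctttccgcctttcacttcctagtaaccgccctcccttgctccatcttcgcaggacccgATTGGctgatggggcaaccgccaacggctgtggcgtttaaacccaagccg

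MKI67 has 2 CHR words, whose first bases lie 47 and 29 bases before the start, and the second one overlaps a CCAAT word by 1 base. HJURP has 1 CHR word at 111 bases before the start, with 4 CCAAT words around it, from 169 to 72 bases before the start. SGO2 has 1 CCAAT word, at the start itself, and no CHR word. CENPE has none of these words in its window. No match says only that the letters are not in the window, and a match is not a shown binding site.

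RefSeq windows were found for 47 of the 55 members, with none for MIS18A, CENPH, CENPL, CENPM, KNL1, BIRC5, NCAPH2 and RAD21. Taking the first listed start of each gene, a CHR word was in 26 of the 47 windows (55.3%), against 16.6% of 27305 genes in all and 11.2% of the 11310 tested genes with a window. A CCAAT word was in 28 (59.6%), against 35.7% of all and 36.4% of tested genes. Both together were in 16 (34.0%), against 6.6% of all genes. Members called higher in TFCP2L1 cells held a CHR word in 13 of 19 windows (68.4%) and the other members in 13 of 28 (46.4%), a difference that was not tested. For CCAAT the shares were 11 of 19 (57.9%) and 17 of 28 (60.7%). An E2F word (TTTGGCGC or TTTCGCGC, both strands) was in 2 of 47 windows (4.3%), against 1.2% of all and 2.0% of tested genes. A pair of CCAG words spaced by 6 bases, a motif form of the CP2 family to which TFCP2L1 belongs, was searched on both strands. It was in 2 windows (4.3%), those of CENPA and SKA3, against 4.1% of all and 3.7% of tested genes. Members called higher held it in 2 of 19 windows (10.5%) and the others in 0 of 28, a difference that was not tested.

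The overexpressed gene matched the labels. Vector replicates 1 and 2 had 0 reads of TFCP2L1 and replicate 3 had 1, while the overexpressing libraries had 13578, 13885 and 12333. Its CPM gave p = 0.1 by exact two-sided permutation, the smallest p possible with 3 against 3, and edgeR's quasi-likelihood test an adjusted p of 3.97e-17. Library totals ran from 37928516 to 38987434 reads, and mitochondrially encoded genes took 5.13% to 7.59% of them, the top shares being those of vector replicate 2 and, above it, TFCP2L1 replicate 3. Thyroid identity was partly visible: PAX8, a thyroid lineage factor, was at a mean of 133 FPKM in vector cells and FOXE1 at 4.95 FPKM, while TG was at 0.0924 FPKM and SLC5A5 had 0 reads there, and NKX2-1 and TSHR were not analysed here. Of epithelial markers KRT18 and KRT8 were at 109 and 13.5 FPKM, and KRT19, EPCAM and CDH1 had at most 20 reads in any library. The low keratin gene KRT7 fell, with a log2 fold change of -0.96 (edgeR adjusted p = 0.00202). The summed FPKM ran from 133 to 144 in vector and 115 to 136 in TFCP2L1 libraries over 4 thyroid genes, and from 115 to 136 and 114 to 128 over 6 epithelial genes. Markers of other cells were low except CD68: the summed FPKM of 5 fibroblast genes was 1.81 to 2.19 in vector and 1.43 to 1.70 in TFCP2L1 libraries, and that of 4 endothelial genes 0.126 to 0.191 and 0.203 to 0.299. Of 4 leukocyte genes the defining marker PTPRC had at most 7 reads in a library, while CD68, a lysosomal protein also made outside leukocytes, brought the summed FPKM to 37.2 to 43.9 and 56.8 to 72.1. CD68 rose, with a log2 fold change of 0.63 (edgeR adjusted p = 0.000423). Their part in the results below was not tested.

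Levels differed widely between members. Compared per gene length, the mean of the deposited FPKM in vector cells had a median of 12.8 over the members and ran from 1.14 for CENPP to 124 for RAD21. Every member had at least 271 reads in every library. Within the KMN network, the outer kinetochore's microtubule-binding core, ZWINT was highest at 63.4 FPKM and NSL1 lowest at 2.65. The 4 subunits of the Ndc80 complex, which form 1 rod, were led by NUF2 at 21.1 and NDC80 at 20.7 FPKM, with SPC24 at 15.7 FPKM and SPC25 below it.

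**Figure D1:**
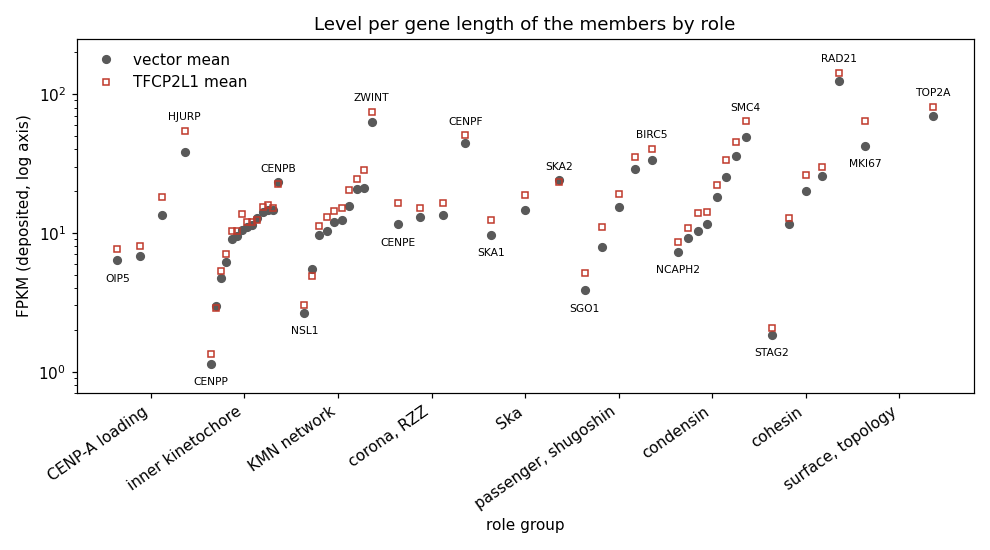
Mean deposited FPKM of each of the 55 members (vertical log axis) by role group, with vector means as filled circles and TFCP2L1 means as open squares; the lowest and highest member of each group in vector cells are named. RAD21 stands highest at 124 FPKM in vector cells and CENPP lowest at 1.14, and within most groups the squares lie at or slightly above the circles.

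More members of the machinery were higher in TFCP2L1 cells than in vector cells, by small amounts. By edgeR's quasi-likelihood test with Benjamini-Hochberg adjustment over all 14431 tested genes, 20 of the 55 members rose at an adjusted p under 0.05 and 0 fell, where 4.63% of all tested genes rose and 6.94% fell. The 20 rises ran from 1.19-fold for CDCA8 to 1.47-fold for MKI67, with adjusted p from 0.000281 (HJURP) to 0.0462 (INCENP). No member changed 2-fold. Of the 35 members not called, 30 had a positive log2 fold change and 5 a negative one, CENPB, CENPC, CENPT, MIS12 and SKA2. The median log2 fold change was 0.21 over the members and 0.00 over all tested genes. In bulk RNA a larger share of cells in G2 and mitosis and more RNA of these genes per cell cannot be told apart.

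At an unadjusted p under 0.05, 30 members were higher and 0 lower, where 11.8% of all tested genes were higher and 13.3% lower. DESeq2 called 20 members up and 0 down, beside 6.23% and 7.76% of all genes it tested. With limma-voom 16 members were up and 0 down, beside 4.23% and 6.78% of all genes. For 28 members every TFCP2L1 library stood above every vector library, as for 14.4% of all tested genes; for 0 members every one stood below, beside 15.6% of all tested genes. The count of rises fell to 9 without vector replicate 1 and to 10 without vector replicate 3, where 2.02% and 2.12% of all tested genes rose. Of the 20 calls 9 held when any single library was left out: HJURP, NUF2, CENPE, SGO2, SMC4, NCAPG, NCAPH, SMC1A and MKI67.

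The shift was in all 3 TFCP2L1 libraries. Relative to the vector mean, the median member lay at -0.021, -0.001 and 0.034 on the log2 CPM scale in the vector libraries and at 0.234, 0.252 and 0.191 in the TFCP2L1 libraries, while the median over all tested genes stayed between -0.003 and 0.004. Of the 55 members, 47, 48 and 47 were above their vector mean in the 3 TFCP2L1 libraries, against 24, 27 and 36 in the vector libraries. The members' joint share of all reads was 0.494%, 0.494% and 0.524% with the vector, against 0.604%, 0.657% and 0.608% with TFCP2L1.

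**Figure D2:**
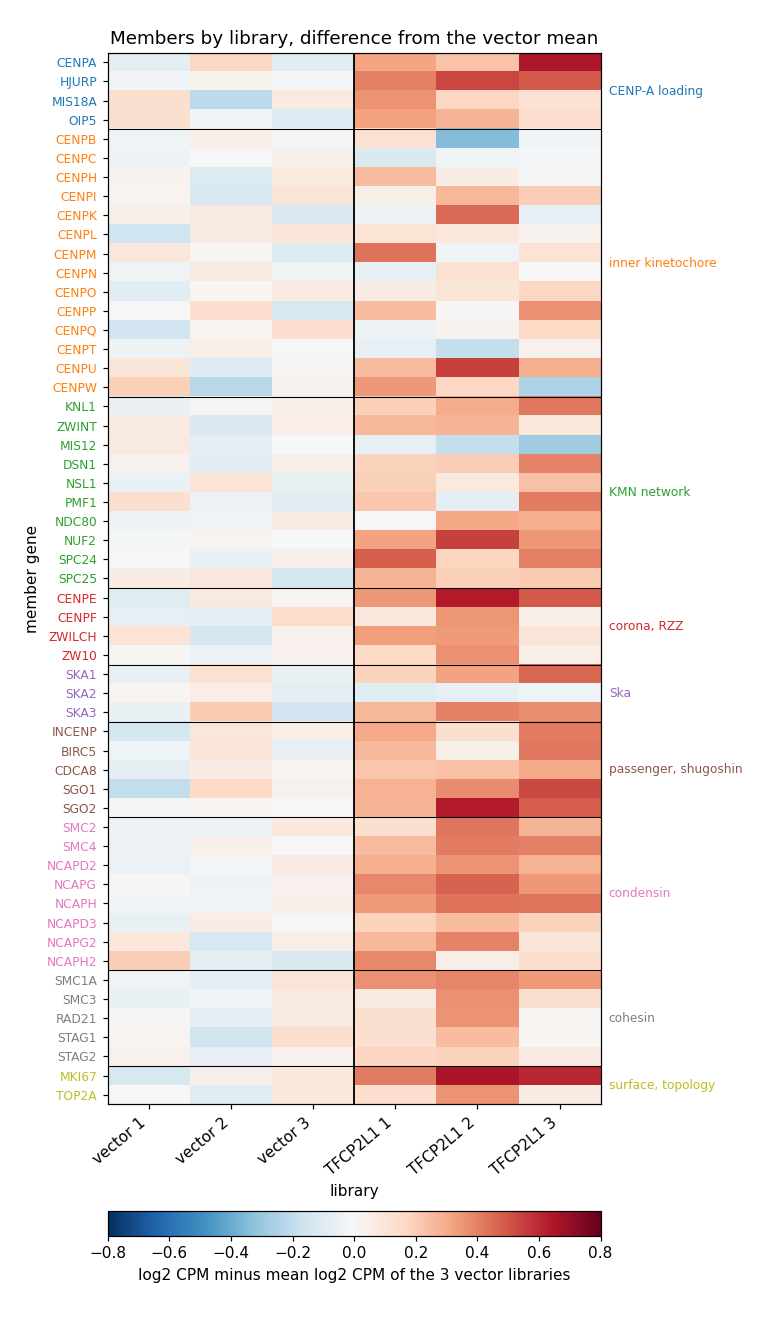
Each row is 1 of the 55 members, grouped by role, and each column 1 library; the colour gives log2 CPM minus the mean log2 CPM of the 3 vector libraries (red higher, blue lower). Most rows turn red in all 3 TFCP2L1 libraries, and CENPU is the only inner kinetochore row that was called.

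Genes of CENP-A and its loading rose in part, with 2 of 4 called (50%, beside 4.63% of all tested genes that rose). HJURP, the chaperone that carries CENP-A to centromeres (chromosome 2, 233833416 to 233854566), was at 120, 124 and 121 CPM in the vector libraries and at 161, 176 and 171 CPM in the TFCP2L1 libraries. The groups lie far apart relative to their spread, and its log2 fold change was 0.48 ± 0.07 (SE; edgeR adjusted p = 0.000281). CENPA, the histone itself, was at 17.8, 21.1 and 17.7 CPM in vector and 23.4, 22.0 and 29.5 CPM in TFCP2L1 libraries. The groups just miss each other, and TFCP2L1 replicate 3 is highest (0.40 ± 0.12, edgeR adjusted p = 0.0437). The adjusted p of CENPA rose past 0.05 when vector replicate 1 (0.169) or 3 (0.182), or TFCP2L1 replicate 1 (0.0752) or 3 (0.148), was left out. The Mis18 complex prepares the centromere for HJURP, and its genes were not called: MIS18A was at 15.8 ± 1.92 (SD, n = 3) and 18.3 ± 1.72 CPM and OIP5 at 7.71 ± 0.651 and 9.11 ± 0.595 CPM. OIP5 shares 38.0% of its exon bases with the antisense gene OIP5-AS1, so its reads are uncertain.

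In the inner kinetochore 1 of 14 genes rose, a share of 7.14% beside the 4.63% of all genes. The median log2 fold change of the group was 0.10, with a range of -0.07 to 0.37. CENPU, a subunit that recruits the kinase PLK1 (chromosome 4, 184694618 to 184734133), was at 29.9, 26.0 and 28.1 CPM in vector and 33.2, 40.9 and 34.1 CPM in TFCP2L1 libraries. The libraries do not overlap and TFCP2L1 replicate 2 is highest (0.37 ± 0.10, edgeR adjusted p = 0.0292). Leaving out vector replicate 1 (0.0549), 2 (0.110) or 3 (0.107), or TFCP2L1 replicate 2 (0.0925), ended the call of CENPU.

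The other 13 inner genes had overlapping libraries. CENPI, which sits with CENPH, CENPK and CENPM in a 4-subunit module, had the smallest p among them, at 42.0, 38.1 and 44.4 CPM in vector and 42.8, 49.7 and 47.4 CPM in TFCP2L1 libraries (0.17 ± 0.09, edgeR adjusted p = 0.271). CENPC, the direct reader of the CENP-A nucleosome, had overlapping libraries and a log2 fold change of -0.05 ± 0.10. CENPN, another reader of CENP-A, was at 70.5 ± 2.99 and 71.5 ± 4.60 CPM (0.02 ± 0.08). Its reads overlap those of genes on the other strand over 22.8% of exon bases. CENPT, which anchors Ndc80 complexes, was at 43.9 ± 1.42 and 41.8 ± 3.28 CPM (-0.07 ± 0.09), and CENPW, its histone-fold partner, at 14.2 ± 2.03 and 15.2 ± 3.01 CPM. CENPB, which binds a short box in alpha satellite DNA, was at 67.4 ± 1.71 and 64.3 ± 10.3 CPM, and its lowest library was TFCP2L1 replicate 2 at 53.0 CPM. CENPH, CENPK, CENPL, CENPM, CENPO, CENPP and CENPQ had log2 fold changes from 0.05 (CENPQ) to 0.21 (CENPP). CENPP shares 42.7% and CENPO 31.4% of exon bases with genes on the other strand. Whether the inner group differs from the other role groups was not tested.

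Genes of the outer KMN network rose in part, with 3 of 10 called (30%, beside 4.63% of all tested genes that rose). Their median log2 fold change was 0.21. NUF2, a subunit of the Ndc80 rod that binds microtubules (chromosome 1, 163266576 to 163355764), was at 46.5, 47.6 and 46.8 CPM in vector and 58.8, 68.7 and 59.8 CPM in TFCP2L1 libraries. The vector libraries of NUF2 lie close together and every TFCP2L1 library is higher (0.41 ± 0.08, edgeR adjusted p = 0.00396). SPC24, from the inner end of the same rod, was at 43.4, 41.7 and 44.7 CPM against 60.2, 48.7 and 57.2 CPM (0.36 ± 0.09, edgeR adjusted p = 0.0179). KNL1, the scaffold that recruits the BUB checkpoint proteins, was at 95.6, 100 and 102 CPM against 113, 122 and 133 CPM (0.31 ± 0.08, edgeR adjusted p = 0.0163). Neither gene has overlapping groups. SPC24 was not called with vector replicate 1 (0.0714), 2 (0.0618) or 3 (0.0593), or TFCP2L1 replicate 1 (0.0924), left out, nor was KNL1 without vector replicate 1 (0.101) or 3 (0.0613).

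Partners of these subunits were not called. NDC80, which forms the microtubule-binding head with NUF2, was at 44.4 ± 1.88 and 51.3 ± 5.98 CPM (0.21 ± 0.09), and SPC25, the partner of SPC24, at 20.7 ± 1.72 and 24.1 ± 0.723 CPM (0.22 ± 0.10). The differences between these partners were not tested. ZWINT, which binds KNL1, was at 138 ± 9.31 and 159 ± 11.6 CPM, not overlapping but not called (edgeR adjusted p = 0.119, and 0.0290 when TFCP2L1 replicate 3 was left out). In the Mis12 complex, which links KNL1 and Ndc80 to the centromere, DSN1, NSL1 and PMF1 had log2 fold changes of 0.26, 0.17 and 0.19, and MIS12 itself was at 21.4 ± 1.10 and 18.9 ± 1.42 CPM (-0.18 ± 0.10, edgeR adjusted p = 0.319). PMF1 shares 23.3% of its exon bases with the readthrough gene PMF1-BGLAP.

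Of the corona and RZZ genes among the members 1 of 4 rose (25%, beside 4.63% of all tested genes). CENPE, a kinesin that moves chromosomes to the spindle equator (chromosome 4, 103105806 to 103198409), was at 93.4, 105 and 101 CPM in vector and 127, 155 and 140 CPM in TFCP2L1 libraries. Its lowest TFCP2L1 library stands above its highest vector library by more than the spread of the vector group (0.49 ± 0.08, edgeR adjusted p = 0.000951). CENPF, a large corona protein, was at 443, 439 and 515 CPM against 492, 592 and 477 CPM, and the groups overlap (0.16 ± 0.09, edgeR adjusted p = 0.308). Of the RZZ complex, which brings dynein and the MAD1 checkpoint protein to kinetochores, the member genes ZWILCH and ZW10 were not called. KNTC1, which encodes another RZZ subunit, is not a member and was counted with the other kinetochore genes below. KNTC1 rose, at 26.1 ± 1.74 and 33.4 ± 1.42 CPM (0.36 ± 0.09, edgeR adjusted p = 0.0203). With vector replicate 1 left out its adjusted p was 0.128, with vector replicate 3 left out 0.0716, and with TFCP2L1 replicate 1 left out 0.0666. ZWILCH was at 53.6, 44.9 and 50.7 CPM in vector and 62.6, 62.8 and 53.2 CPM in TFCP2L1 libraries, with TFCP2L1 replicate 3 inside the vector range (edgeR adjusted p = 0.0852, and 0.0134 without TFCP2L1 replicate 3), and ZW10 at 38.1 ± 1.13 and 43.7 ± 4.90 CPM.

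The Ska complex follows the ends of shrinking microtubules, and 2 of its 3 genes rose (66.7%, beside 4.63% of all tested genes). SKA3 was at 41.2, 49.3 and 38.4 CPM in vector and 51.3, 56.4 and 55.4 CPM in TFCP2L1 libraries (0.34 ± 0.10, edgeR adjusted p = 0.0329). For SKA1 the values were 27.1, 30.7 and 27.1 CPM against 32.1, 35.3 and 38.9 CPM (0.33 ± 0.10, edgeR adjusted p = 0.0447). In both genes vector replicate 2 is the highest of its group and lies close below the lowest TFCP2L1 library. SKA2 did not follow them, at 73.3, 75.4 and 69.2 CPM against 68.0, 69.5 and 70.9 CPM (-0.07 ± 0.07, edgeR adjusted p = 0.645). SKA3 was not called with vector replicate 1 (0.141) or 3 (0.188), or TFCP2L1 replicate 1 (0.0537) or 2 (0.0772), left out. For SKA1 the same held of vector replicate 1 (0.178) or 3 (0.183) and TFCP2L1 replicate 2 (0.0672) or 3 (0.118).

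Member genes of the chromosomal passenger complex and the shugoshins rose in 4 of 5 cases (80%, beside 4.63% of all tested genes). SGO2, a protector of centromeric cohesin (chromosome 2, 200510008 to 200583782), was at 50.9, 52.1 and 51.6 CPM in vector and 62.2, 80.1 and 72.1 CPM in TFCP2L1 libraries. The vector libraries are nearly equal and the TFCP2L1 libraries spread widely above them (0.47 ± 0.09, edgeR adjusted p = 0.00271). SGO1, the main mitotic shugoshin, was at 19.6, 25.0 and 23.0 CPM against 27.2, 29.1 and 32.3 CPM (0.39 ± 0.11, edgeR adjusted p = 0.0318). INCENP, the scaffold of the passenger complex, was at 91.3, 107 and 104 CPM against 124, 110 and 134 CPM (0.29 ± 0.09, edgeR adjusted p = 0.0462). CDCA8, which encodes borealin, was at 65.2, 71.8 and 69.8 CPM against 80.4, 80.9 and 84.9 CPM (0.25 ± 0.08, edgeR adjusted p = 0.0415). These 3 genes have groups that do not overlap, and the gap of INCENP is narrow beside its level.

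BIRC5, survivin, was at 86.6, 94.8 and 84.9 CPM against 106, 91.4 and 119 CPM, and TFCP2L1 replicate 2 falls within the vector range (edgeR adjusted p = 0.0950, and 0.0135 without that library). AURKB, the kinase of the passenger complex, is not a member and was counted with the other kinetochore genes below. It was at 71.1 ± 5.36 and 77.6 ± 7.61 CPM, with overlapping groups (0.12 ± 0.09, edgeR adjusted p = 0.425). Of the complex, INCENP and CDCA8 were thus called, and BIRC5 and AURKB were not. Single libraries decided the 3 weaker calls of this group. SGO1 was not called with vector replicate 1 (0.179) or 3 (0.0986) left out, nor with TFCP2L1 replicate 2 (0.0503) or 3 (0.0688) left out. For INCENP this held of vector replicates 1 (0.236) and 3 (0.121) and of TFCP2L1 replicates 1 (0.126) and 3 (0.102). For CDCA8 it held of vector replicates 1 (0.210), 2 (0.0681) and 3 (0.133) and of TFCP2L1 replicates 1 (0.0764) and 3 (0.0762).

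**Figure D3:**
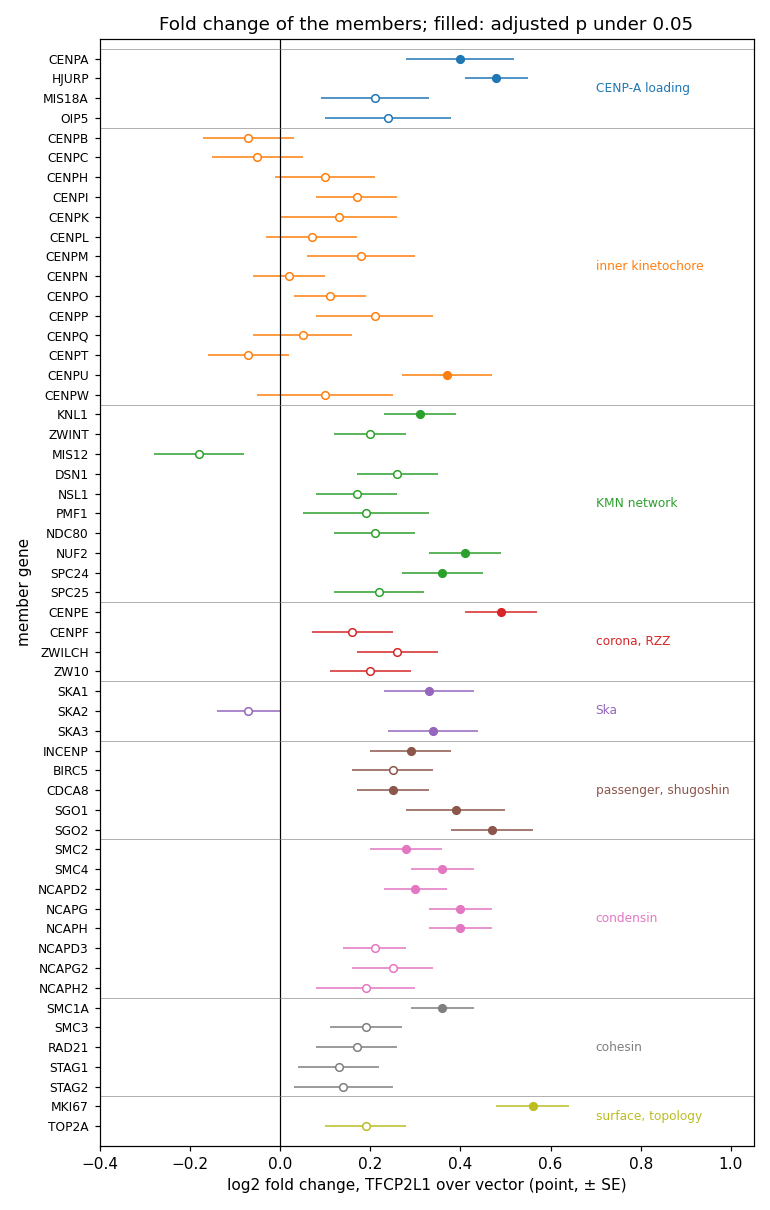
Log2 fold change of TFCP2L1 over vector for each of the 55 members (horizontal axis; bars, SE from the edgeR fit), by role group. Filled points passed an adjusted p of 0.05, and these 20 all lie right of 0, with MKI67 farthest at 0.56.

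Condensin genes rose in 5 of 8 cases (62.5%, beside 4.63% of all tested genes). All 8 had a positive log2 fold change, with a median of 0.29. NCAPG (chromosome 4, 17810902 to 17844862), a subunit of condensin I, was at 118, 114 and 120 CPM in vector and 153, 163 and 149 CPM in TFCP2L1 libraries (0.40 ± 0.07, edgeR adjusted p = 0.00131). NCAPH, the kleisin that closes the condensin I ring, was at 61.5, 61.5 and 64.7 CPM against 79.2, 84.6 and 84.3 CPM (0.40 ± 0.07, edgeR adjusted p = 0.00192). NCAPD2, the remaining condensin I subunit, was at 169, 173 and 183 CPM against 213, 224 and 212 CPM (0.30 ± 0.07, edgeR adjusted p = 0.00998). In all of them the TFCP2L1 libraries lie close together and well above the vector libraries. SMC4, an ATPase arm shared by condensin I and II, was at 276, 293 and 286 CPM against 339, 380 and 377 CPM (0.36 ± 0.07, edgeR adjusted p = 0.00446), and its partner SMC2 at 100, 99.3 and 109 CPM against 112, 138 and 124 CPM (0.28 ± 0.08, edgeR adjusted p = 0.0441).

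NCAPD2 was not called with vector replicate 1 left out (0.0805), nor was SMC2 without vector replicate 1 (0.167), 2 (0.133) or 3 (0.0858) or TFCP2L1 replicate 2 (0.123). Without strand the reads of NCAPG and LCORL cannot be told apart over 33.1% of NCAPG exon bases, nor those of SMC4 and its neighbours IFT80 and TRIM59 over 25.6%. Subunits of condensin II, which works in the nucleus from prophase, were not called. NCAPG2 was at 110 ± 8.43 and 131 ± 13.3 CPM (0.25 ± 0.09, edgeR adjusted p = 0.0736, and 0.00851 without TFCP2L1 replicate 3). NCAPD3 was at 70.5, 76.5 and 73.4 CPM against 83.5, 87.6 and 83.1 CPM (0.21 ± 0.07, 0.0865) and NCAPH2 at 28.3 ± 3.41 and 32.4 ± 3.98 CPM (0.19 ± 0.11, 0.308). The summed CPM of the condensin I subunits over that of the condensin II subunits, a ratio chosen after the values were seen, was 1.59, 1.72 and 1.73 in vector and 1.77, 1.81 and 1.93 in TFCP2L1 libraries. The ratio does not overlap between groups, and it was not tested.

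Cohesin had 1 of 5 genes called (20%, beside 4.63% of all tested genes that rose), with a median log2 fold change of 0.17. SMC1A, an ATPase arm of the ring (X chromosome, 53374149 to 53422728), was at 197, 191 and 216 CPM in vector and 259, 264 and 255 CPM in TFCP2L1 libraries (0.36 ± 0.07, edgeR adjusted p = 0.00364). The TFCP2L1 libraries of this gene are nearly equal and all above the vector group. SMC3, the other arm, was at 138, 141 and 150 CPM against 150, 184 and 156 CPM, and the groups overlap slightly (0.19 ± 0.08, edgeR adjusted p = 0.171). RAD21, the kleisin, was at 460, 433 and 481 CPM against 500, 586 and 463 CPM, with TFCP2L1 replicate 3 inside the vector range (0.17 ± 0.09, 0.238). The paralogs STAG1 and STAG2 each give the ring its DNA-binding subunit. STAG1 was at 78.3, 69.3 and 85.0 CPM against 84.6, 91.7 and 77.6 CPM (0.13 ± 0.09, 0.424). STAG2 was at 13.1, 12.2 and 13.1 CPM against 14.4, 14.5 and 13.4 CPM (0.14 ± 0.11, 0.493), without overlap but with a gap smaller than the spread. STAG1 shares 21.2% of its exon bases with PCCB on the other strand.

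MKI67 had the largest fold change among the 55 members. Its product Ki-67 coats mitotic chromosomes and keeps them apart (chromosome 10, 128096659 to 128126385). MKI67 was at 520, 583 and 602 CPM in vector and 757, 891 and 861 CPM in TFCP2L1 libraries (0.56 ± 0.08, edgeR adjusted p = 0.000343), with a wide gap between the groups. TOP2A, the topoisomerase that untangles sister chromatids, is another standard marker of dividing cells. Its values were 409, 384 and 434 CPM against 449, 523 and 425 CPM, and TFCP2L1 replicate 3 lies inside the vector range (0.19 ± 0.09, 0.187). Rank correlation of the log2 fold change with the vector FPKM across the 55 members was 0.20, a description over genes that share the same libraries.

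**Figure D4:**
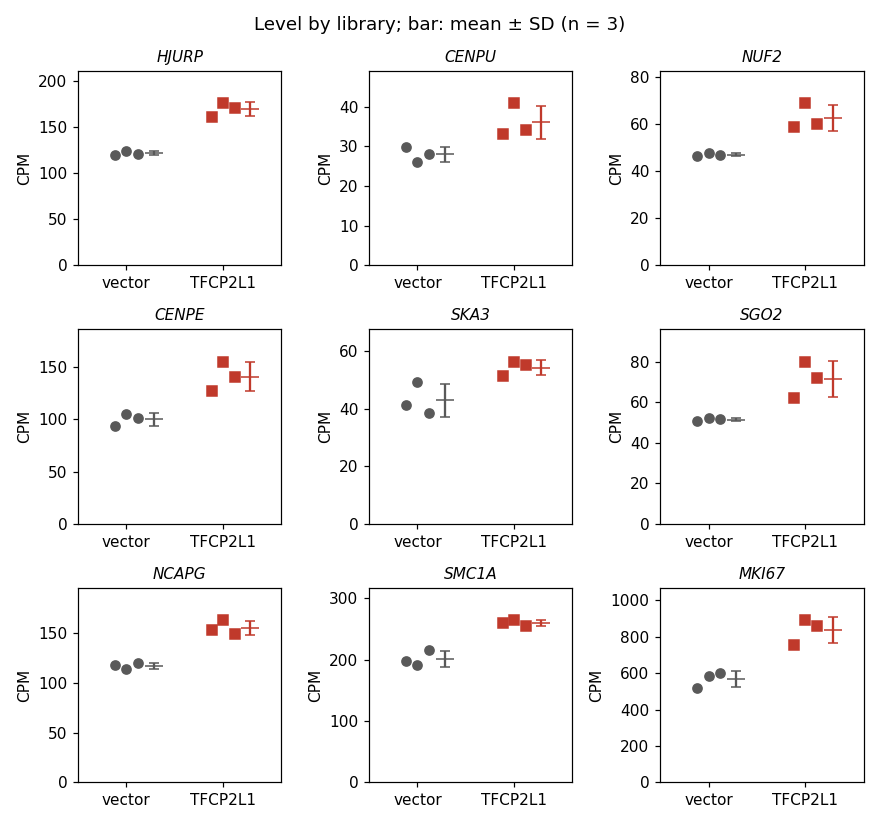
CPM in each library (vertical axis from 0) for 1 called member of each role group, with vector libraries as grey circles, TFCP2L1 libraries as red squares and the mean ± SD (n = 3) beside them. In each of the 9 panels all TFCP2L1 libraries lie above all vector libraries; those of MKI67 run from 520 to 602 CPM in vector and from 757 to 891 CPM in TFCP2L1 libraries.

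Other genes of the same machinery were taken from lists set by known function. Of 21 tested kinetochore and spindle checkpoint genes outside the 55 members 7 rose and 0 fell (33.3%, beside 4.63% of all genes that rose). PLK1, the polo kinase, was at 131 ± 7.76 and 186 ± 10.4 CPM (0.50 ± 0.08), and BUB1, the checkpoint kinase that binds KNL1, at 155 ± 5.82 and 203 ± 18.3 CPM (0.38 ± 0.08). BUB1B rose by 0.37 and TRIP13, an ATPase that recycles MAD2, by 0.37 on the log2 scale. TRIP13 missed the threshold when vector replicate 3 was left out (edgeR adjusted p = 0.0531). For 10 of the 21 genes every TFCP2L1 library stood above every vector library, as for 14.4% of all tested genes. For 2, MAD1L1 (-0.23 ± 0.08, edgeR adjusted p = 0.0802) and BOD1 (-0.22 ± 0.10, 0.178), every one stood below, beside 15.6% of all tested genes. Neither of these 2 was called. Of 11 genes for cohesin loading, release, acetylation and cleavage 0 were called by edgeR, DESeq2 or limma-voom, and 2 were higher and 0 lower at an unadjusted p under 0.05 in edgeR, where 11.8% of all tested genes were higher. The smallest p among them were those of PDS5B (0.19 ± 0.08, edgeR adjusted p = 0.137) and CDCA5, sororin (0.18 ± 0.08, 0.149).

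Of 18 genes of mitotic entry and exit 8 rose (44.4%) and 0 fell, where 4.63% of all tested genes rose and 6.94% fell. CCNB2, a mitotic cyclin, was at 41.6 ± 1.41 and 63.4 ± 3.60 CPM (0.61 ± 0.08), followed by GTSE1 (0.40 ± 0.07), HMMR (0.39 ± 0.08) and CCNB1 (0.36 ± 0.08). CCNB1 was not called with vector replicate 2 (edgeR adjusted p = 0.0556) or 3 (0.0579), or TFCP2L1 replicate 1 (0.0525), left out. Among 20 regulators of mitotic transcription 4 rose (20%, beside the same 4.63%) and 1 fell. FOXM1, which drives G2 and mitosis genes, was at 154, 162 and 158 CPM in vector and 209, 213 and 238 CPM in TFCP2L1 libraries (0.48 ± 0.07, edgeR adjusted p = 0.000437). MYBL2 was not called (0.19 ± 0.07, edgeR adjusted p = 0.0903). Nor were the MuvB genes LIN9, LIN37, LIN52, LIN54 and RBBP4 called by edgeR, with log2 fold changes from -0.21 (LIN52) to 0.30 (LIN9). CDKN1A, the CDK inhibitor p21, was the gene that fell, from 290, 297 and 286 CPM to 192, 174 and 201 CPM (-0.62 ± 0.08, edgeR adjusted p = 3.77e-05). The repressors E2F8 (0.52 ± 0.12) and E2F7 (0.39 ± 0.09) rose. E2F8 was not called with vector replicate 1 (0.0696) or 3 (0.0750) left out, nor E2F7 with vector replicate 1 left out (0.0566).

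Of 25 S phase genes 6 rose (24.0%) and 0 fell, where 4.63% of all tested genes rose and 6.94% fell. Their median log2 fold change was 0.19. GINS2, a subunit of the replicative helicase, was at 13.1 ± 1.32 and 19.2 ± 0.737 CPM (0.55 ± 0.11). CHAF1B, PRIM1 and MCM6 had log2 fold changes of 0.39, 0.37 and 0.34. Their calls depended on single libraries: without vector replicate 1 the edgeR adjusted p was 0.121, 0.119 and 0.1 in that order, and without vector replicate 3 it was 0.0620, 0.0555 and 0.129. Leaving out TFCP2L1 replicate 1 gave 0.0712, 0.0767 and 0.0978. PRIM1 and MCM6 also lost their calls without vector replicate 2 (0.129 and 0.130) or TFCP2L1 replicate 2 (0.0594 and 0.155).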

How the data were processed

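RNA-seq of 3 vector and 3 TFCP2L1 libraries was used. Tools named in the submitters' processing notes are HISAT2, HTSeq and fastp, with no version, and the build is GRCh38.p13. The sources used here do not give strand handling. The authors deposited raw read counts and FPKM. FPKM equalled the deposited count over library total and 1 length per gene for all 21173 genes, so it is no independent measurement.

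Counts were tested with edgeR 4.0.16 (R 4.3.3): filterByExpr (14431 genes), TMM, robust quasi-likelihood F-test, group as the only term, two-sided, Benjamini-Hochberg adjustment over all tested genes, threshold 0.05. CPM is per TMM-scaled library; SE is the log2 fold change over the square root of F. Alternatives used DESeq2 1.42.0, limma 3.58.1, other scalings and filters, a replicate block and each library left out. A chi-square per gene of 7.75 to 45.0 separated replicate libraries, so none was a copy. Precision rests on 3 libraries a group; read counts cover counting error only.

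Members, lists and role groups were chosen with earlier results of these data known. Any member could be named. Values per library are given for up to 4 called members of each role group with the largest change (with fewer than 2 called, the 2 of smallest p; all of cohesin), plus some chosen after their values were seen (CENPF, SKA2, BIRC5, SMC2, NCAPD3). Other lists name up to 4 called genes, plus KNTC1, AURKB, MAD1L1, BOD1, MYBL2 and the MuvB genes, which were added after their values were seen. Positions and exon overlaps are from GENCODE 29 (GRCh38), which held all 55 symbols. Pseudogenes named after 9 members have no row in the table used, so reads of such copies cannot be separated.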

Additional observations from a re-analysis of the deposited data

How the results depend on the processing

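Every alternative kept 0 members lower. The 20 rises became 15 to 23 under other scalings, filters and tools, where 3.99% to 6.23% of all tested genes rose. The member median there was 0.20 to 0.24 on the log2 scale. Without 1 library the count of members higher ran from 9 to 18. That of all genes higher ran from 298 to 765 (2.02% to 5.18% of those tested) and that of all genes lower from 621 to 1106. Of the 20 calls 9 held in all 16 alternatives. Across all tested genes, the deviations of same-numbered replicates correlated at r = 0.188, -0.307 and -0.235 for numbers 1, 2 and 3. Across unlike numbers r ran from -0.242 to 0.42, the highest being vector replicate 2 with TFCP2L1 replicate 3. Deviations from a mean of 3 libraries are not independent, so these r cannot show whether replicates were paired. The main fit did not pair them. With a replicate block 10 members were higher, and 328 genes were higher (2.27% of those tested) and 649 lower in all. The cause was not tested. Every member had at least 271 reads a library; the number of libraries, 3 a group, limits the precision.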

Other observations

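Per gene length the cohesin paralogs STAG1 and STAG2 stood far apart in every library. STAG1 was at 11.7, 10.2 and 12.7 FPKM in vector and 12.9, 13.8 and 11.7 FPKM in TFCP2L1 libraries. STAG2 was at 1.90, 1.75 and 1.91 FPKM and at 2.14, 2.12 and 1.97 FPKM. The ring subunit RAD21, at 117 to 131 FPKM in vector libraries, was the highest member, so STAG2 was the lowest and RAD21 the highest of the 5 cohesin genes in all 6 libraries. These levels rest on the authors' gene lengths and, for STAG1, on reads shared with PCCB.

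Within single complexes the estimated log2 fold changes of some subunits are given side by side. SKA2 was at -0.07 ± 0.07 (SE) beside SKA1 at 0.33 ± 0.10 and SKA3 at 0.34 ± 0.10, and MIS12 was at -0.18 ± 0.10 beside DSN1 at 0.26 ± 0.09. These pairs were picked after their values were seen, and the differences were not tested.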
